A study of Mus musculus with 4 samples.

Results

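Sciellin (Scel) and 9 other genes of the cornified envelope were followed in cultured mouse pancreatic ductal cells. The members were fixed by name: Scel, the plakin genes Evpl and Ppl, the envelope precursor genes Ivl, Lor, Sprr1a and Sprr1b, and the transglutaminase genes Tgm1, Tgm2 and Tgm3. All 10 were found among the 22869 gene symbols of the deposited tables, and where a gene had several transcripts, the transcript with the highest mean count stood for it. Scel entered because of its fold change between the groups compared here, so its own values are a description and carry no test.

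RNA-seq was done on primary ductal cells of 4 adult C57BL/6 mice. The 2 control libraries came from HhexL/L mice, in which both Hhex alleles are floxed and no Cre is present, and the 2 libraries labelled knockout from Sox9CreER;HhexL/L littermates, in which a tamoxifen-dependent Cre is expressed from Sox9 regulatory sequence. All cultures received 500 nM 4-hydroxytamoxifen for 4 days, after isolation from mice that had not been induced. No group carried the Cre without floxed alleles, so effects of the Cre and of Hhex loss cannot be told apart, and nothing in the labels says that cells were selected for recombination.

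The cornified envelope is the layer of cross-linked protein and bound lipid that replaces the plasma membrane of dying keratinocytes in stratified epithelia. In textbook order, the plakins envoplakin and periplakin assemble under the membrane near desmosomes, involucrin joins them, and loricrin, small proline-rich proteins and late cornified envelope proteins then fill the shell, all joined by transglutaminases through glutamine and lysine side chains. Sciellin is a precursor of the same structure with a LIM domain, and is also made by simple and stratified epithelia that do not cornify. The pancreatic duct is a simple epithelium with keratins of the simple type and builds no cornified envelope.

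Promoter sequence is shown for the members on which the results turn: Scel, which differed between the groups, and the precursors Ivl, Lor and Sprr1a, which ran in opposite orders inside the labelled-knockout group. RefSeq promoter windows of GRCm38.p6 were matched for 7 of the 10 members, and Evpl, Ppl and Tgm2 had no entry. The deposited files were made on mm9, so these coordinates belong to GRCm38.p6 alone. Each line gives the 250 bases before the annotated transcript start, 5′ to 3′ on the strand of the gene. Capitals mark matches to TGANTCA, with any base at N, a loose pattern for the element bound by AP-1 (Fos and Jun) proteins. The windows lie at chr14:103513091-103513340 (+) for Scel, chr3:92573736-92573985 (-) for Ivl, chr3:92083143-92083392 (-) for Lor and chr3:92485882-92486131 (-) for Sprr1a.
Scel: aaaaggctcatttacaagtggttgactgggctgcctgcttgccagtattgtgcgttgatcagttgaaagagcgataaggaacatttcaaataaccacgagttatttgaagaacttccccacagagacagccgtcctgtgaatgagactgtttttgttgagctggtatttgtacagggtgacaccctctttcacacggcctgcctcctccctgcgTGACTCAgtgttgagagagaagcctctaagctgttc
Ivl: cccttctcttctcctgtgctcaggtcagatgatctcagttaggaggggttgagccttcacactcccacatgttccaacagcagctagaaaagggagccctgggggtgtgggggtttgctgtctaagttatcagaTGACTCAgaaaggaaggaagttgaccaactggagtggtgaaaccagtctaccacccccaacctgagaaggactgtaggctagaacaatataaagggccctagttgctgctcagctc
Lor: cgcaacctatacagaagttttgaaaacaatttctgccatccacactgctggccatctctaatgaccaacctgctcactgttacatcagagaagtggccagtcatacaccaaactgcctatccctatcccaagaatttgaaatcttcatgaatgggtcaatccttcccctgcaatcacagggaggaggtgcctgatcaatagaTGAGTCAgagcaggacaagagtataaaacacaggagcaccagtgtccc
Sprr1a: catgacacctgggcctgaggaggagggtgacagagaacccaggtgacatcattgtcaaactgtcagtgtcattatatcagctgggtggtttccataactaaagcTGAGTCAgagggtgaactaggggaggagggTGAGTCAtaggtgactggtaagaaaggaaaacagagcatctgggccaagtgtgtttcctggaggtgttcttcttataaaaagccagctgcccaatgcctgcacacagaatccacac

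The AP-1 pattern TGANTCA was present in 5 of the 7 matched members, in Scel, Ivl, Lor and Sprr1b at 1 place each and in Sprr1a at 2 places. The middle base was C or G in all of these but Sprr1b, which had TGAATCA. With any middle base the pattern was found in 6.75% of all 32851 promoter windows and in 7.82% of gene symbols. TGANTCA reads the same on both strands, so each place was counted once. Its match in Scel began at -36 from the transcript start, in Lor at -48, in Ivl at -116 and in Sprr1a at -146 and -116. The TATA element TATAAA, searched on both strands, was present in Ivl, Lor, Sprr1a, Sprr1b and Tgm3 and in 12.4% of all windows, and those of Scel and Tgm1 held no match. ATTAA, the core of the sequence that HHEX is known to bind, was searched on both strands and matched only in Sprr1b among the 7, beside 24.9% of all windows. The GC box GGGCGG matched only in Tgm1, beside 32.7% of windows. A match describes letters and is not evidence of binding, and these windows were not assayed here.

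The libraries held between 25257778 and 39582625 deposited counts. Hhex, the gene meant to be deleted, did not fall with the knockout label: it measured 24.8 and 17.7 CPM in the controls, then 23.6 and 39.0 CPM (log2 fold change 0.55 ± 0.27 (SE), edgeR adjusted p = 0.735). Which exons the floxed allele loses is not given in the sources used here, so reads outside them may still be counted. For this reason the second group is called by its label. Of 14 ductal markers all 14 passed the filter on low counts, led by the simple keratin genes Krt18 and Krt8 with mean RPKM of 4076 and 1632. Onecut1 was near the floor, with at most 20 counts and 0 in labelled-knockout replicate 2. edgeR called 0 of the 14, but they were not level between the groups. The labelled knockout was higher without overlap for 4 and lower for 4, beside 19.1% and 17.0% of all transcripts. Keratinocyte markers summed to between 79.8 and 141 CPM and consisted mostly of Krt6a, at 79.4, 130, 70.8 and 101 CPM in control replicates 1 and 2 and labelled-knockout replicates 1 and 2. The second by level, Krt10, had a mean of 0.877 RPKM. Krt5, Krt14, Trp63 and Krt1, which define basal and suprabasal keratinocytes, were each at or below 1.31 CPM in every library. Labelled-knockout replicate 2 was the only library with female expression (Xist at 304 CPM against at most 1.75 CPM elsewhere). It and control replicate 1 also carried more reads in weakly expressed genes: the 9610 genes with a mean under 1 CPM summed to 3736 and 1901 CPM in the controls and to 1676 and 2744 CPM in labelled-knockout replicates 1 and 2.

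The first question was at what level ductal cells carry envelope transcripts at all. Levels are compared between genes by RPKM, which is scaled by transcript length. Tgm2 and Ppl had the highest levels, with mean RPKM of 27.5 and 25.4, followed by Sprr1a at 11.5 and Ivl at 7.98. Tgm1, Evpl and Scel followed at 4.98, 4.41 and 3.52. Lor at 0.436 RPKM, Tgm3 at 0.103 RPKM and Sprr1b at 0.0358 RPKM were at the bottom. Each gene overlapped its neighbours in this order in the range over the 4 libraries. Ranked among all 22869 genes by RPKM, Ppl stood between 873 and 3078 and Tgm2 between 833 and 3546, whereas Lor stood between 10897 and 15096.

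**Figure D1:**
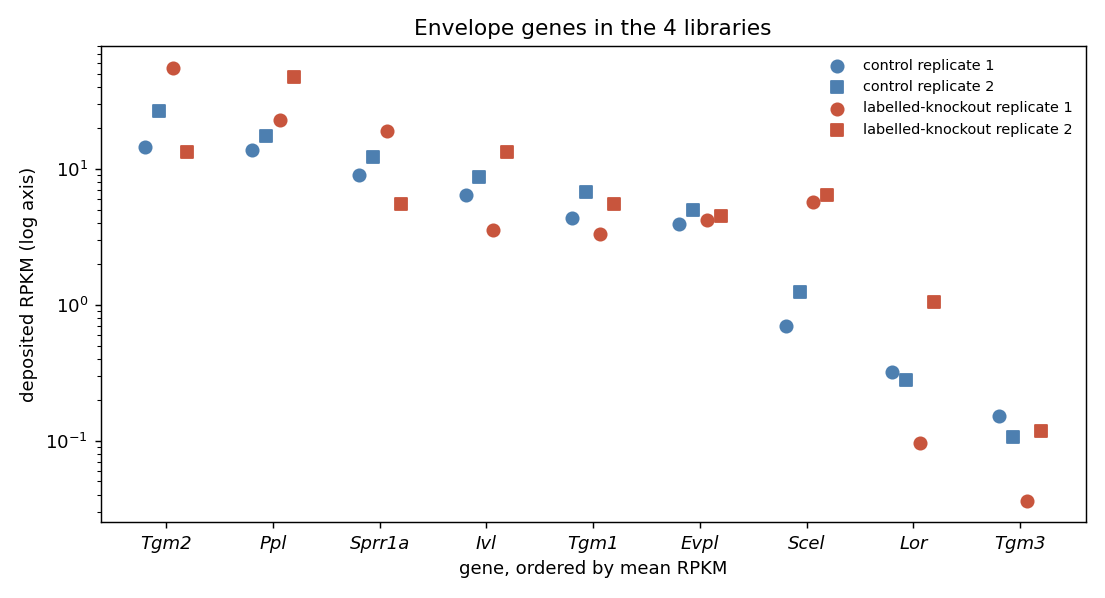
Deposited RPKM (log axis) of the 9 members that passed the filter on low counts, each point being 1 library; circles and squares are replicates 1 and 2, blue the controls and red the libraries labelled knockout. Scel is the member whose red points (5.69 and 6.46 RPKM) stand farthest above its blue points (0.693 and 1.24 RPKM), while the red points of Tgm2, Ivl, Lor and Sprr1a lie on both sides of the blue points.

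Scel was the member that differed most between the groups. Scel (NM_022886) had 82 and 122 counts in the controls, compared with 819 and 813 in the cultures labelled knockout, which is 2.99 and 4.95 CPM against 21.9 and 26.2 CPM. Both labelled-knockout libraries were high and close to each other, 1.20-fold apart, the controls were 1.66-fold apart, and the lowest labelled-knockout library was 4.44-fold above the highest control. The mean went from 3.97 ± 1.39 CPM (SD, n = 2) to 24.1 ± 3.03 CPM (SD, n = 2), a log2 fold change of 2.61 ± 0.26 (SE) or 6.11-fold. The fitted 95% interval was 4.01 to 9.30, and it does not allow for Scel having been picked for this fold. By RPKM rank Scel went from 11686 and 10660 in the controls to 6835 and 6054.

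Scel was on the list of called transcripts from which it was picked, and it left that list under several settings. It was below an edgeR or other adjusted p of 0.05 in 7 of 12 analyses of all libraries and above it in the other 5, which were library totals, upper-quartile factors, a minimum count of 50, 1 transcript per gene and limma-trend on log2(RPKM + 1). Its log2 fold change in those 12 lay between 1.86 and 2.62. With each library left out in turn it lay between 2.28 and 3.04.

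The genes next to Scel differed far less. Mycbp2, its nearest protein-coding neighbour on one side in the RefSeq order of chromosome 14, measured 70.3 and 77.3 CPM in the controls, compared with 82.2 and 87.8 CPM in the cultures labelled knockout without overlap (log2 fold change 0.20 ± 0.14 (SE), edgeR adjusted p = 0.857). Slain1, on the other side, measured 11.1 and 14.2 CPM against 14.3 and 13.2 CPM (edgeR adjusted p = 0.940).

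The summed mesothelial markers were also higher in the cultures labelled knockout, and their part in the Scel result was not tested. Its 5 genes summed to 1586 and 2015 CPM in the controls and to 3143 and 4493 CPM in the cultures labelled knockout, and the groups did not overlap. By gene, 3 of the 5 had positive fold changes and edgeR called 0, with Msln and Upk1b at an unadjusted p under 0.05. Nearly all of this sum was Msln, a surface glycoprotein gene, at 1584 and 2013 CPM against 3139 and 4486 CPM (edgeR adjusted p = 0.412). Upk1b, a uroplakin gene, measured 0.474 and 0.487 CPM against 2.14 and 3.61 CPM. The defining mesothelial genes Wt1 and Lrrn4 were at most at 1.06 and 0.364 CPM in any library. Fibroblast markers summed to 35.3 and 37.4 CPM in the controls, compared with 46.7 and 58.2 CPM, also without overlap. Their leading genes ran in opposite directions. Vim, the intermediate filament gene vimentin, had 12.3 and 19.9 CPM against 39.0 and 47.9 CPM (edgeR adjusted p = 0.111), and Sparc, a matrix protein gene, had 11.99 and 13.1 CPM against 4.53 and 3.48 CPM (edgeR adjusted p = 0.0606). Dcn and Lum, which define fibroblasts, did not pass the filter. Myeloid markers summed to between 8.32 and 18.5 CPM, and the highest by RPKM were Cd68 with at most 16.2 CPM and Fcer1g with at most 0.487 CPM. Acinar markers summed to between 1.34 and 3.39 CPM, and the highest by RPKM were Ctrb1 and Cel with at most 0.547 and 1.35 CPM.

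By pattern over the 4 libraries, the genes nearest to Scel were Klra15, Klra18, Mal, Klra33 and Klra4. Likeness was the Euclidean distance between centred log2(CPM + 0.5) values over 4 libraries, searched in 10195 genes with a mean of at least 5 CPM, and the 5 distances lay between 0.583 and 0.613. Mal, which encodes an apical membrane sorting protein, measured 178 and 239 CPM in the controls, compared with 658 and 1041 CPM in the cultures labelled knockout. The Klra genes encode lectin-like receptors and are near-identical copies of each other, so their 4 entries are uncertain as separate genes. A ranking over 4 libraries with groups this far apart picks genes by their group difference.

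The plakins form the scaffold on which the envelope is laid down, and the partners of the pair behaved differently. Ppl (NM_008909), encoding periplakin, measured 123 and 143 CPM in the controls, compared with 183 and 395 CPM in the cultures labelled knockout. Both labelled-knockout libraries lay above both controls, and replicate 2 was 2.16-fold above replicate 1. The log2 fold change of Ppl was 1.12 ± 0.33 (SE), and it missed the threshold (edgeR adjusted p = 0.412). It passed with DESeq2 (adjusted p = 0.00847). Without labelled-knockout replicate 2 its log2 fold change was 0.44 and without replicate 1 it was 1.55. Each of these fits has 1 library left in that group, which is then assumed to vary as the controls do. For this member and those that follow, only the fold changes of such fits are given.

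Evpl (NM_025276), encoding envoplakin, which pairs with periplakin, was level over the libraries. It measured 35.5 and 41.6 CPM in the controls, compared with 34.1 and 38.3 CPM in the cultures labelled knockout, and the groups overlapped. Its log2 fold change was -0.092 ± 0.16 (SE) (95% interval -0.46 to 0.28, edgeR adjusted p = 0.942). The ratio of Ppl to Evpl in RPKM was therefore 3.53 and 3.50 in the controls and 5.46 and 10.5 in labelled-knockout replicates 1 and 2. The controls agreed in this ratio and both labelled-knockout libraries were above them, but with 2 libraries against 2 an exact permutation test cannot give a two-sided p under 0.333.

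The precursor genes of involucrin and loricrin did not pass the test between the groups, and they differed widely inside the labelled-knockout group. Ivl (NM_008412), an early glutamine-rich precursor, measured 17.2 and 21.6 CPM in the controls, 8.54 CPM in labelled-knockout replicate 1 and 33.6 CPM in replicate 2. Replicate 1 was below both controls and replicate 2 above both, 3.93-fold apart. The log2 fold change of Ivl was 0.11 ± 0.53 (SE) (edgeR adjusted p = 0.980). It was -1.19 without replicate 2 and 0.77 without replicate 1, so the library left out set the direction.

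Lor (NM_008508), the main precursor of the epidermal envelope, followed the order of Ivl at a level near the floor. It had 22 and 16 counts in the controls, 8 in labelled-knockout replicate 1 and 77 in replicate 2, or 0.802, 0.649, 0.214 and 2.48 CPM. The exact 95% Poisson intervals, which cover counting error only, ran from 0.0925 to 0.422 CPM in replicate 1 and from 1.96 to 3.10 CPM in replicate 2, so the 11.6-fold gap between these libraries was larger than counting error. The log2 fold change between the groups was 0.80 ± 1.00 (SE) (edgeR adjusted p = 0.926), with -1.77 without replicate 2 and 1.74 without replicate 1. Replicate 2 was also the higher of the pair in the summed level of weakly expressed genes given above, 2744 against 1676 CPM. The part of that difference in the Lor value was not tested.

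The small proline-rich gene Sprr1a ran in the opposite order. Sprr1a (NM_009264), a cross-bridging precursor also induced by stress and injury, measured 10.1 and 12.6 CPM in the controls, 19.0 CPM in labelled-knockout replicate 1 and 5.77 CPM in replicate 2. Here replicate 1 was above both controls and replicate 2 below both. The log2 fold change of Sprr1a was 0.15 ± 0.48 (SE) (edgeR adjusted p = 0.969), with 0.74 without replicate 2 and -0.995 without replicate 1. The ratio of Ivl to Sprr1a in RPKM was 0.706 and 0.711 in the controls, 0.186 in labelled-knockout replicate 1 and 2.42 in replicate 2. Sprr1b, its close relative, had 0 and 3 counts in the controls and 0 and 1 in the cultures labelled knockout and did not pass the filter. Taking 3 counts as the limit that a count of 0 allows, the floor was 0.109 CPM in control replicate 1 and 0.0804 CPM in labelled-knockout replicate 1; the two-sided 95% Poisson intervals used for Lor reach slightly higher, to 0.134 and 0.0988 CPM.

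Among the cross-linking enzymes, Tgm2 (NM_009373), the widely expressed tissue transglutaminase, had the highest level and the order of Sprr1a. It measured 72.4 and 124 CPM in the controls, 249.9 CPM in labelled-knockout replicate 1 and 62.4 CPM in replicate 2. The libraries labelled knockout were 4.00-fold apart and lay on both sides of the controls. The log2 fold change of Tgm2 was 0.67 ± 0.56 (SE) (edgeR adjusted p = 0.892). It was 1.34 without replicate 2 and -0.67 without replicate 1.

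Tgm1 (NM_019984), the membrane-anchored keratinocyte enzyme, varied less. It measured 17.2 and 24.6 CPM in the controls, compared with 11.7 and 20.6 CPM in the cultures labelled knockout, and the groups overlapped. Its log2 fold change was -0.38 ± 0.30 (SE) (edgeR adjusted p = 0.883), with -0.85 without replicate 2 and -0.04 without replicate 1. The other 2 Tgm1 transcripts had nearly the same counts and log2 fold changes of -0.36 each, and they share reads with the transcript named. The ratio of Tgm2 to Tgm1 in RPKM was 3.31 and 3.98 in the controls, 16.9 in labelled-knockout replicate 1 and 2.39 in replicate 2. Tgm3 (NM_009374), the enzyme of late epidermal and hair differentiation, was barely detected, with 24, 14, 7 and 20 counts in control replicates 1 and 2 and labelled-knockout replicates 1 and 2 (log2 fold change -0.87 ± 0.77 (SE), edgeR adjusted p = 0.894).

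The genes whose pattern was nearest to that of Tgm2, the other member with the highest RPKM, were Slc7a11, Siglecg, Ramp1, Grk5 and Ampd3, at distances between 0.149 and 0.395. Slc7a11, which encodes the cystine transporter subunit of system xc-, measured 28.3 and 43.9 CPM in the controls, compared with 90.4 and 21.1 CPM in labelled-knockout replicates 1 and 2. All 5 were highest in labelled-knockout replicate 1, and their edgeR adjusted p lay between 0.776 and 0.919.

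**Figure D2:**
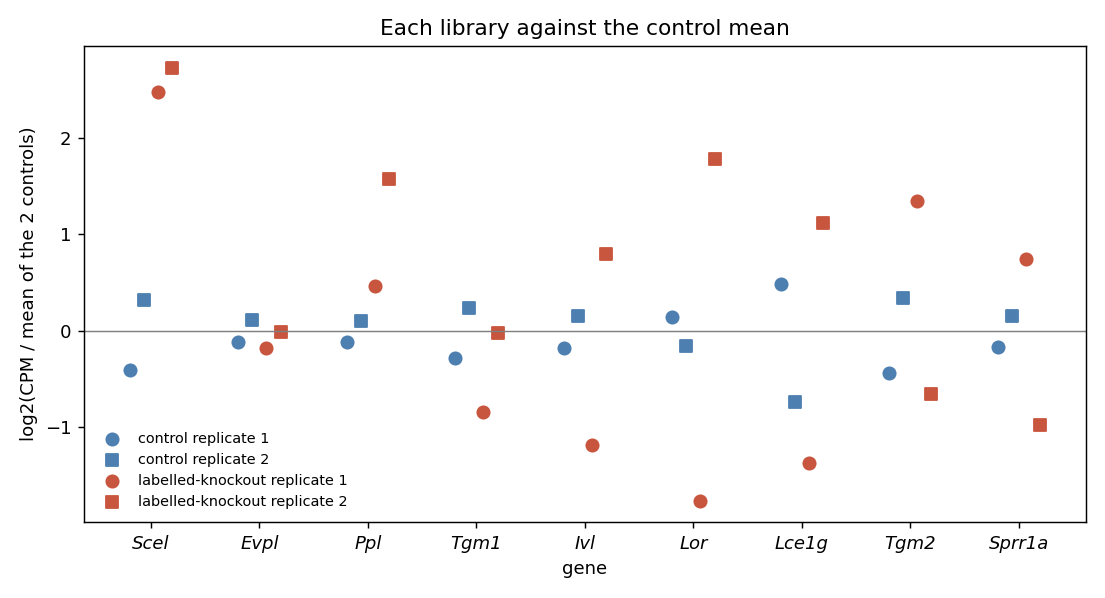
Log2 of CPM over the mean of the 2 controls, for each library; circles and squares are replicates 1 and 2, blue the controls and red the libraries labelled knockout. For Scel and Ppl both red points lie above the blue points, for Ivl, Lor and Lce1g the red square is high and the red circle low, and for Tgm2 and Sprr1a the order of the red points is the opposite.

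For most members tested, the spread inside the labelled-knockout group was wider than that between the controls. It was narrower for Scel (1.20-fold against 1.66-fold) and for Evpl (1.12-fold against 1.17-fold). Of the 9 members tested, 6 differed at least 2-fold between the libraries labelled knockout, beside 14.1% of all 20949 transcripts tested. Ppl, Ivl, Lor and Tgm3 were higher in replicate 2, and Tgm2 and Sprr1a in replicate 1. Of all transcripts, 2336 were at least 2-fold higher in replicate 2 and 621 in replicate 1, so most such gaps ran toward replicate 2. None of the 9 differed 2-fold between the controls, beside 12.3% of all transcripts. Replicate 2 came from a female mouse by its Xist level and replicate 1 did not, and sex and culture cannot be told apart here.

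Of the 9 members tested, edgeR called 1, Scel, at an adjusted p under 0.05. Over all transcripts tested the call rate was 0.153%, 0.105% for higher and 0.0477% for lower calls, and since Scel was chosen from this contrast nothing is read from that count. For Scel and Ppl the groups did not overlap and the labelled knockout was higher, 2 of 9, beside 19.1% of all transcripts. For no member was it lower without overlap, beside 17.0%, and in either direction 36.1% of all transcripts did not overlap. The median log2 fold change was 0.15 over the 9 members and -0.012 over all transcripts. The edgeR fit recovered 93% of simulated 4-fold changes but 25% of simulated 2-fold changes. The simulation gave every transcript the same coefficient of variation, with no spread of its own for any gene. These rates therefore do not say how likely a call was for a given member, such as Ppl with its fold of 2.17.

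**Figure D3:**
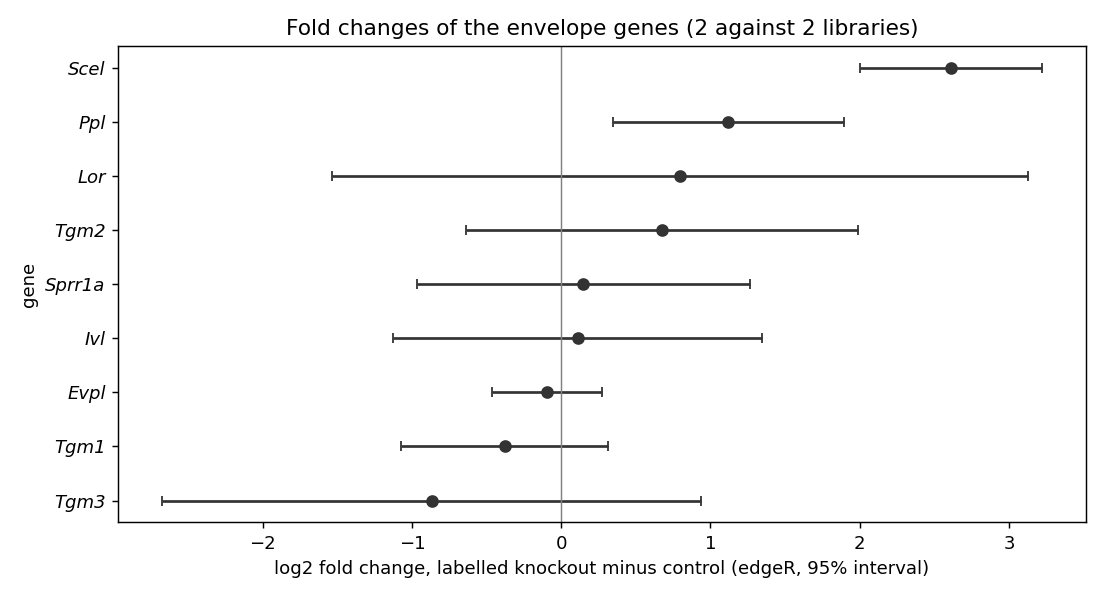
Log2 fold change of the 9 members tested, labelled knockout minus control, from edgeR with 95% intervals (n = 2 per group). The interval of Scel runs from 2.00 to 3.22 and that of Ppl from 0.34 to 1.90, and those of the other 7 include 0. The interval of Scel does not allow for its having been picked for this fold.

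Among the other genes of the envelope shell, most were too low to test. Of 48 other precursor genes listed, 45 were found and 18 passed the filter, and the 27 that did not included 11 Sprr2 and 11 Lce genes. edgeR called 0 of the 18, at a median log2 fold change of 0.078. DESeq2 called 1, S100a10, beside 303 of 28199 transcripts. The 3 with the highest RPKM were Anxa1, S100a10 and Lce1g. Anxa1 and S100a10 encode membrane-associated proteins incorporated into envelopes but made by most epithelia, and Lce1g is a late cornified envelope gene. S100a10 measured 372 and 471 CPM in the controls, compared with 622 and 746 CPM in the cultures labelled knockout, without overlap (log2 fold change 0.70 ± 0.21 (SE), edgeR adjusted p = 0.412; DESeq2 adjusted p = 0.0384). Anxa1 measured 2126 and 2911 CPM against 4044 and 2490 CPM (edgeR adjusted p = 0.897).

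Lce1g followed Ivl and Lor inside the labelled-knockout group. It measured 28.8 and 12.3 CPM in the controls, 7.96 CPM in labelled-knockout replicate 1 and 44.5 CPM in replicate 2, 5.60-fold apart (log2 fold change 0.33 ± 0.70 (SE), edgeR adjusted p = 0.954). Unlike Ivl, its controls also differed by over 2-fold. Lce1h, Lce1i and Lce1f, chosen after their values were seen, were likewise higher in replicate 2, by 3.18-fold, 22.6-fold and 5.08-fold, with at most 184 counts. Lce1 genes are close copies, so reads may have been split among them. Crct1, a cysteine-rich gene beside the Lce cluster, was also chosen after its values were seen. It was higher in replicate 1, like Tgm2 and Sprr1a, at 8.71 and 3.77 CPM in labelled-knockout replicates 1 and 2. Its controls measured 3.06 and 8.76 CPM, so unlike for Tgm2 and Sprr1a both labelled-knockout values lay inside the control range. Of the 18 precursors, 9 differed at least 2-fold between the libraries labelled knockout, 8 of them higher in replicate 2, and 8 differed so between the controls. Of all 20949 transcripts tested, 2336 were at least 2-fold higher in replicate 2 and 621 in replicate 1. This direction was therefore the common one and is not read as a trait of the precursors. The weakly expressed genes as a whole were also higher in replicate 2, and their part in these values was not tested.

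Ivl, Lor, Sprr1a and Sprr1b lie in the epidermal differentiation complex on chromosome 3. In the RefSeq order of GRCm38.p6 the stretch from Lor to Ivl holds 18 protein-coding genes, of which 17 were in the files, 6 passed the filter and 0 were called by edgeR. RPKM reached 1 in at least 1 library for 5 of them: Lor, Prr9, Lelp1, Sprr1a and Ivl. Prr9 and Lelp1 are named because the count is small.

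Of the 10 plakin and plaque genes listed, which anchor keratins at desmosomes and the cell cortex, all 10 were tested. Positive fold changes were seen for 8 of them, beside 10126 of all 20949 transcripts. The number called by edgeR was 0, at a median log2 fold change of 0.25. Perp, Dsp and Macf1 had the highest RPKM. Dsp, the desmoplakin gene, measured 219.9 and 294 CPM in the controls, compared with 359 and 349.6 CPM in the cultures labelled knockout (log2 fold change 0.46 ± 0.19 (SE), edgeR adjusted p = 0.626). Macf1, a giant linker of actin and microtubules, measured 442 and 519 CPM against 767 and 942 CPM (edgeR adjusted p = 0.296; DESeq2 adjusted p = 0.00314). Perp, a desmosomal tetraspan gene, measured 164 and 244 CPM against 221 and 256 CPM (edgeR adjusted p = 0.898). Dsp, Macf1 and Pkp1 were above both controls in both labelled-knockout libraries without passing edgeR. This is 3 of the 10, beside 19.1% of all transcripts.

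Of the 7 further transglutaminases and inhibitors listed, 6 were found and tested and edgeR called 0. Tgm4, Cst6 and Tgm7 had the highest RPKM of this list. Tgm4, known from the prostate, measured 7.40 and 8.92 CPM against 11.8 and 9.13 CPM (edgeR adjusted p = 0.820). Cst6, which encodes the cysteine protease inhibitor cystatin M/E, measured 1.24 and 1.30 CPM against 3.78 and 1.32 CPM (edgeR adjusted p = 0.765). Tgm7 had at most 42 counts in any library.

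The envelope carries a bound lipid layer rich in very long ceramides. Of 14 genes for its synthesis all 14 were tested and edgeR called 1, upward, beside 0.105% of all transcripts tested. This was Lass3, the older symbol of Cers3, the ceramide synthase that makes those ceramides. Lass3 measured 9.07 and 10.4 CPM in the controls, compared with 29.2 and 37.5 CPM in the cultures labelled knockout, without overlap. The log2 fold change of Lass3 was 1.77 ± 0.20 (SE), 3.42-fold (edgeR adjusted p = 0.0262). Like Scel it missed the threshold under some settings, being called in 6 of the 12 analyses of all libraries, and it was listed with its call already known. The median of the list was 0.13, and Abhd5 and Ugcg, which are among its members with the highest RPKM, had fold changes of 1.28 and 1.00 (edgeR adjusted p = 0.647 and 0.998). Alox12b, Pnpla1 and Sdr9c7, which act on the same lipids in epidermis and were picked after their values were seen, had at most 59 counts in any library.

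Of 13 proteases and inhibitors of the envelope, 11 were tested and edgeR called 0, at a median log2 fold change of -0.043. Spint2, Spint1 and St14, which encode matriptase and its inhibitors, had the highest RPKM, and their fold changes were 0.971, 1.02 and 1.09 (edgeR adjusted p from 0.930 to 0.983). Of 28 regulators of squamous differentiation 27 were tested and edgeR called 0, at a median of 0.024. Fos, the AP-1 subunit gene, measured 368 and 385 CPM in the controls, compared with 362 and 432 CPM in the cultures labelled knockout (edgeR adjusted p = 0.958). Ehf, an epithelial ETS factor gene, and Junb, another AP-1 gene, had log2 fold changes of -0.11 and -0.31 (edgeR adjusted p = 0.940 and 0.900). Junb had 97.6 and 67.7 CPM in the controls, compared with 46.4 and 87.4 CPM in labelled-knockout replicates 1 and 2, and the groups overlapped. At an unadjusted p under 0.05, where 7.51% of all 20949 transcripts lay (1573), edgeR had 1 of 18 precursors, 3 of 10 plakin and plaque genes, 0 of 6 transglutaminases and inhibitors, 3 of 14 lipid genes, 0 of 11 proteases and inhibitors, 1 of 27 regulators and 0 of 6 genes in the stretch from Lor to Ivl. DESeq2 called 0 transglutaminases and inhibitors, 0 proteases and inhibitors and 0 regulators at an adjusted p under 0.05.

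**Figure D4:**
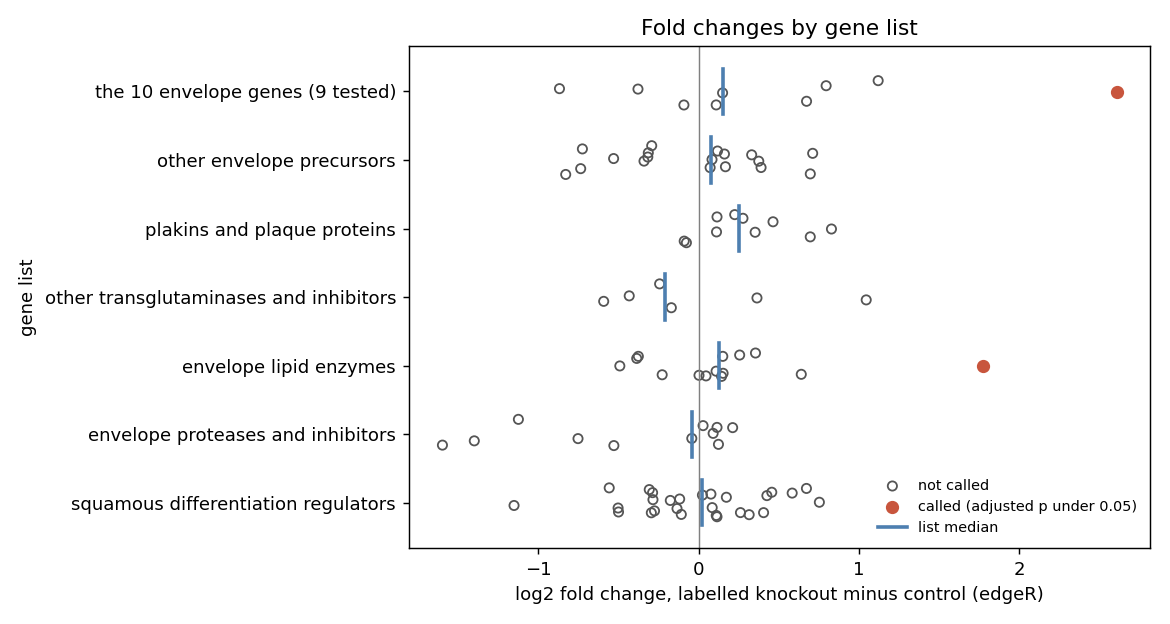
Log2 fold changes from edgeR, labelled knockout minus control, of every tested gene in each list, 1 point a gene, with the list median as a blue bar and called genes filled. The filled points are Scel at 2.61 and Lass3 at 1.77, and the medians lie between -0.21 and 0.25.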

How the data were processed

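RNA-seq was compared between 2 control libraries and 2 libraries labelled Hhex knockout. The deposited raw counts and the deposited RPKM values each have 1 line per RefSeq transcript, and per the submitters' processing notes the build was mm9 and edgeR was used. The aligner, counter and strand setting are not given in the sources used here. For testing, edgeR 4.0.16 under R 4.3.3 was run with filterByExpr (minimum count 10, minimum total 15), TMM factors, the quasi-likelihood F test (legacy off) and Benjamini-Hochberg adjustment over 20949 transcripts, threshold 0.05. The SE is the log2 fold change over the square root of F. CPM uses the TMM-scaled library size. The common biological coefficient of variation was 0.2339. The fit was tested on simulated counts of the same size, with this common coefficient of variation for every transcript. Alternatives used other scaling, filters, features and tests (DESeq2 1.42.0, limma 3.58.1 on the deposited RPKM) and left out each library. Members and gene lists were chosen with earlier results of these data known. Named genes were the members, Hhex, the called genes and the 3 highest by RPKM of each pathway list, the 2 highest of each marker list, and the 5 nearest in pattern to Scel and Tgm2, and genes named outside this rule were chosen after their values were seen. A gene that the rule names is not reported here. The replicates are separate animals, so p-values rest on the spread between 2 animals per group. In edgeR the spread of each transcript is also drawn toward that of all transcripts (2 residual and 5.359 prior degrees of freedom). No sample was left out of the main comparison.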

Additional observations from a re-analysis of the deposited data

How the results depend on the processing

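The number of called transcripts moved more than any member's fold change. Against 32 calls (22 higher, 10 lower), 5 transcripts were called with library totals and 5 with upper-quartile factors (0 higher and 5 lower in both), 4 with a minimum count of 50 (0 higher, 4 lower), 2 with 1 transcript per gene (0 higher, 2 lower), 14 with counts summed per symbol (11 higher, 3 lower), 303 with DESeq2 (207 higher, 96 lower), 64 with the robust edgeR fit (45 higher, 19 lower), 4 with limma-trend on log2(RPKM + 1) (0 higher, 4 lower) and 56 on log2(RPKM + 0.1) (35 higher, 21 lower). Without a filter 25 were called, 6 of them lower, and with edgeR's earlier fit, added after the data were seen, 37. Among these analyses of all libraries, those with 0 higher calls still had between 1238 and 1858 transcripts with an unadjusted p under 0.05. A fit with a library left out has 1 library in a group, which is then assumed to vary as the other group does. Calls from such fits are not read as results for any gene. With each library left out in turn the calls ranged from 0 to 1911, the higher calls from 0 to 1181 and the lower calls from 0 to 860. Leaving out control replicate 1 gave 0 calls (517 transcripts at an unadjusted p under 0.05), leaving out control replicate 2 gave 3, none higher (983 transcripts at that unadjusted p), and there were 1742 without labelled-knockout replicate 1 and 1911 without replicate 2.

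Among the members, edgeR called 0 with library totals, upper-quartile factors, a minimum count of 50 and 1 transcript per gene, as did limma-trend on log2(RPKM + 1), where Scel had an adjusted p from 0.0574 to 0.104. DESeq2 called 2, Scel and Ppl, beside 303 of 28199 transcripts. With each library left out the count is not read as a result, for the reason given above. In those fits the log2 fold change of Scel lay between 2.28 and 3.04. The lipid enzyme call, Lass3, became 0 under those same 5 settings and with counts summed per symbol, where its edgeR adjusted p was 0.0503. DESeq2 called 1 other precursor (S100a10) and 1 plakin (Macf1), beside the same 303 of 28199 transcripts. The proteases stayed at 0 in every alternative that used all libraries. With libraries left out, the calls on these lists are not read as results, for the reason given above.

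Signs turned for some members. On log2(RPKM + 1) Ivl had a log2 fold change of -0.067 and Sprr1a of -0.011, and on log2(RPKM + 0.1) of -0.109 and -0.033. With libraries left out, Ivl ranged from -1.19 to 0.77, Sprr1a from -0.995 to 0.74, Tgm2 from -0.67 to 1.34, Lor from -1.77 to 1.74 and Evpl from -0.21 to 0.063. Scel, Ppl, Tgm1 and Tgm3 kept their sign in every alternative that gave a value. Where the cause is not the number of libraries or transcripts tested, the cause was not tested. No paired analysis was possible because the titles number the libraries 1 to 4 across the groups and pair none. Lor, Tgm3 and Sprr1b had at most 77 counts in a library, so their values carry wide counting intervals.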
